A study of Mus musculus with 12 samples.

Results

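Messenger RNA of 10 transcription factors that set the balance between effector and memory fates of CD8 T cells was examined in mouse cytotoxic T lymphocytes (CTL). The genes were taken by symbol from the expression table: Tbx21, Prdm1, Id2, Runx3 and Zeb2 on the effector side, and Eomes, Id3, Bcl6, Tcf7 and Bach2 on the memory side. All 10 had a row among the 11022 genes of the table, which the authors had already filtered for low counts. The CTL came from 3 female mice, 9 to 13 weeks old, that carry the P14 transgenic T cell receptor (TCR) for the lymphocytic choriomeningitis virus peptide gp33-41. Spleen or lymph node cells were activated with the peptide, interleukin 2 and interleukin 12 for 48 h and expanded for 5 days in interleukin 2, so every group holds cells that had already met antigen and had been kept in culture. On day 7 there were 4 groups of 3 cultures: CTL left unstimulated, CTL given the peptide at 100 ng/mL for 4 h (TCR), CTL given the peptide with the PI3K p110δ inhibitor IC87114 at 10 µM (PI3Kdi), and CTL given the peptide with the MEK inhibitor PD184252 at 2 µM (MEKi). Interleukin 2 at 20 ng/mL was present in all 4 groups.

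An activated CD8 T cell can become a short-lived killer or a long-lived cell that divides again on a later encounter with antigen. The proteins made from these genes bind DNA, or block partners that do. Pairs across the effector and memory sides include T-bet (Tbx21) and Eomesodermin (Eomes), and Blimp-1 (Prdm1) and Bcl6, which oppose each other. Id2 and Id3, a further pair, both tie up E proteins. Signals from the TCR reach such genes partly through PI3K, whose activity keeps FOXO factors out of the nucleus, and partly through MEK and ERK, which raise AP-1 and EGR factors.

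Levels are in FPKM, in which the fragments of a gene are taken relative to its exon length and to the scaled library, so that levels of different genes can be set side by side. Means carry the SD over the 3 cultures of a group (n = 3). The effective depth was estimated at 7800000 (MEKi replicate 1) to 13340000 (unstimulated replicate 3) reads, and in a gene of 1 kb a level of 0.225 to 0.385 FPKM stands for 3 reads. All 8 CD8 T cell markers examined were present, with a summed level of at least 2650 FPKM in every sample, and 0 of 8 B cell and 0 of 4 red cell and platelet markers had a row. Of the other lists, 1 of 9 myeloid markers (Cd68) and 2 of 3 CD4 T cell markers had a row, and the natural killer markers Klrb1c, Klre1 and Fcer1g summed to 39.1 to 52.1 FPKM. The 4 of 7 dendritic cell markers with a row differed between groups, with sums of 9.28 to 16.7 FPKM in unstimulated CTL, 17.2 to 22.4 with TCR, 9.61 to 15.3 with PI3Kdi and 15 to 18.5 with MEKi. In the same order, mean FPKM was 0.0267, 3.49, 1.97 and 3.11 for Zbtb46 and 1.35, 7.22, 2.25 and 4.13 for Cd74. It was 10.8, 8.6, 7.81 and 9.26 for H2-Ab1 and 0.41, 0.53, 0.577 and 0.41 for Itgax. Flt3, Siglech and Clec9a had no row. The part of cells of these other types in the results was not tested. The values come from whole cultures, so fewer cells of a type and less RNA per cell cannot be told apart.

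A change was tested with limma on log2(FPKM + 0.1) of all genes, with Benjamini-Hochberg adjustment over the 11022 genes. A gene is said to have risen or fallen when its adjusted p was under 0.05, and it is called when it also changed more than 2-fold. Where another setting matters, its value stands beside the result or in the closing sections. Such settings were another constant in place of 0.1, quantile normalisation, or the TPM scale, which brings every sample to the same FPKM sum. Each p-value sets a difference between group means against the spread between cultures of the same group. In the main fit that spread is shared by the 4 groups.

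On retriggering of the TCR 7 of the 10 factors rose, Id2 and Id3 fell, and Runx3 did not pass the test. Of all genes 68.6% passed, 33.6% higher and 34.9% lower. With the PI3K inhibitor Tbx21 and Id2 were lower and Prdm1 and Bach2 higher than with TCR alone, beside 25.6% of all genes that passed. With the MEK inhibitor Tbx21, Zeb2, Id2, Eomes and Bcl6 were lower and Bach2 higher, beside 37.1% of all genes. Prdm1 with the PI3K inhibitor, and Id2 and Bcl6 with the MEK inhibitor, did not pass in every setting tried.

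**Figure D1:**
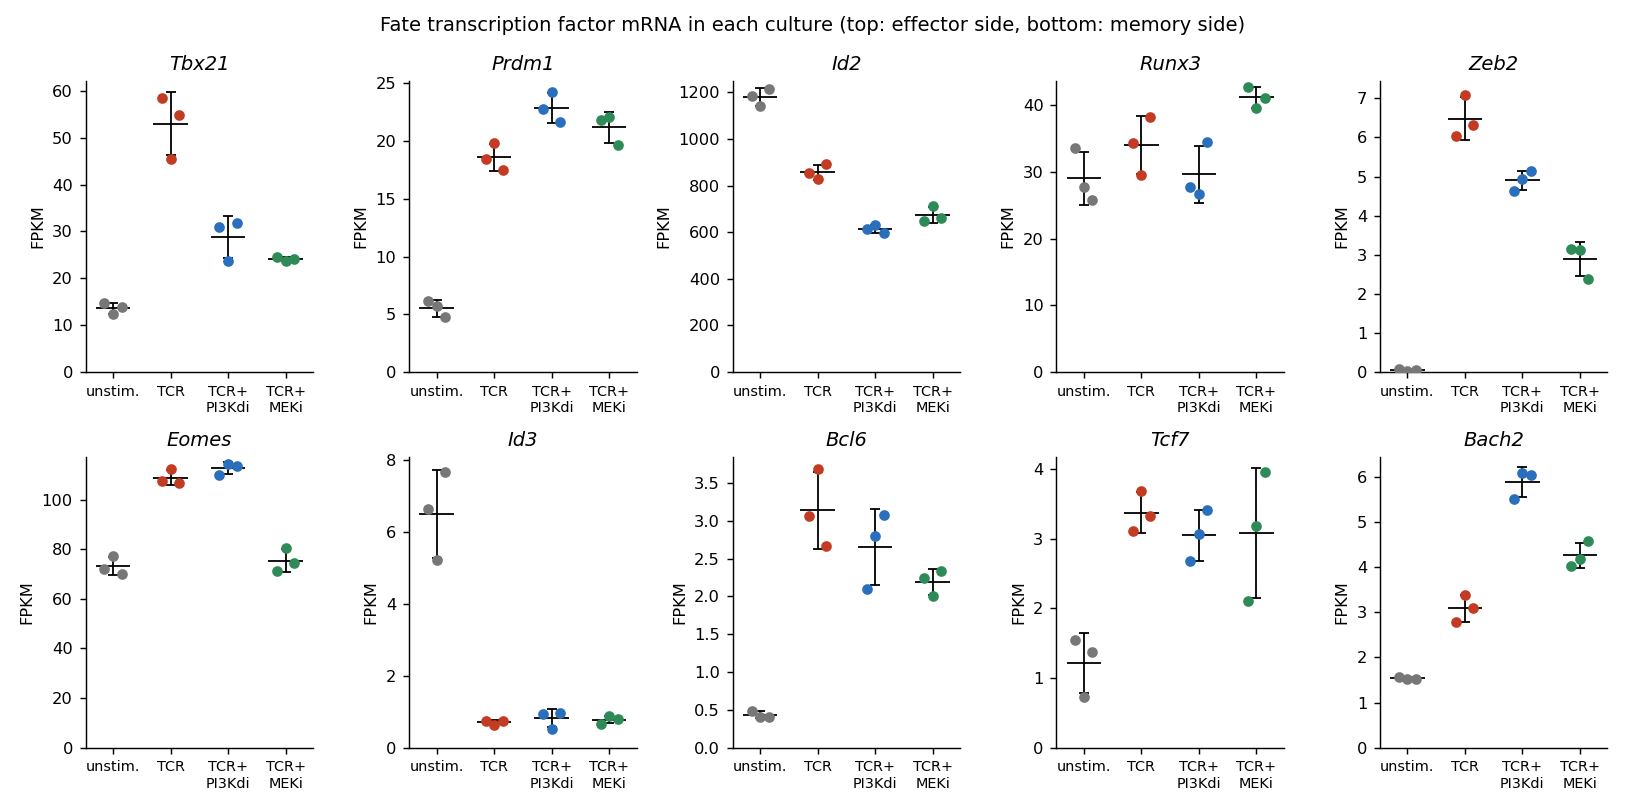
FPKM of each factor (y axis, from 0) in the 12 cultures, by group (x axis), with points for cultures, long bars for means and error bars for 1 SD. Zeb2 and Bcl6 were at or below 0.49 FPKM before stimulation, Id3 was at or above 5.23 FPKM there and below 1 FPKM after it, and the Eomes points with MEKi overlapped the unstimulated ones.

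Promoter sequences are shown for 5 of the genes that rose or fell after stimulation. Each is the stretch of 250 bases before a RefSeq start site in GRCm38.p6 (mm10), written 5′ to 3′ on the strand of the gene. Capitals mark matches, read on either strand, to AP-1 (TGANTCA), EGR (GCGTGGG), FOXO (TGTTTAC), STAT (TTCNNNGAA) and NFAT (TGGAAA), where N is any base. Positions count from the start site, with -1 the base before it. Zeb2 and Bcl6 have other RefSeq starts as well, and the start shown is the one with the most matches.
Prdm1, chr10:44458749-44458998, minus strand: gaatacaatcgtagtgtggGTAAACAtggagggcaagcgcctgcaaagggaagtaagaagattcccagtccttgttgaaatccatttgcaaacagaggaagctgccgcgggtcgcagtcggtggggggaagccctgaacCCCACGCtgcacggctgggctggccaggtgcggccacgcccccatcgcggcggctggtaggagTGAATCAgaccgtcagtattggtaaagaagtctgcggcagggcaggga
Zeb2, start number 4 in RefSeq, chr2:45110278-45110527, minus strand: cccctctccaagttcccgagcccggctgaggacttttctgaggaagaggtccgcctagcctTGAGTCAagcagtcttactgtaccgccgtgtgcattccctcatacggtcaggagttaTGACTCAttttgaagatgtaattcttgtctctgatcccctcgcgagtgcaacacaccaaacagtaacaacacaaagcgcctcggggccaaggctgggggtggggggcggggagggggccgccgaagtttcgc
Bcl6, start number 2 in RefSeq, chr16:23981284-23981533, minus strand: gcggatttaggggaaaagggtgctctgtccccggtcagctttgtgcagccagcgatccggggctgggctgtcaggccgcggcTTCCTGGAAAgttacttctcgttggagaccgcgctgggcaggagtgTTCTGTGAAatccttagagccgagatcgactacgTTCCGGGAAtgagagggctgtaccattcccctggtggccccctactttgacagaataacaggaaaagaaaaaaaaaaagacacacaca
Bach2, chr4:32417185-32417434, plus strand: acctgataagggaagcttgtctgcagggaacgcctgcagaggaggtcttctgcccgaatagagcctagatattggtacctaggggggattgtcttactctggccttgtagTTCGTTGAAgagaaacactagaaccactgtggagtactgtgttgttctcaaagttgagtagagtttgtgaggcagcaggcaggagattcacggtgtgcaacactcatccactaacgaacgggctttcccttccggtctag
Id3, chr4:136143572-136143821, plus strand: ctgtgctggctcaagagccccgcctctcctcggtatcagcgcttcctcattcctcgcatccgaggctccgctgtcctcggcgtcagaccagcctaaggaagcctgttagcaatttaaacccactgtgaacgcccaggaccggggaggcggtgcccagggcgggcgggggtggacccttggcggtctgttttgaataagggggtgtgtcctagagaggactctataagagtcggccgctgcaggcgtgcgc

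The Prdm1 stretch held 1 match each to AP-1 (from -48), EGR (from -111) and FOXO (from -231). The Zeb2 stretch held 2 AP-1 matches, from -189 and -132. The windows of Zeb2 starts 1 to 3 held no AP-1 match, and which start these cells use was not tested. In Bcl6 there were 3 STAT matches, from -168, -122 and -88, and an NFAT match from -164 that overlaps the first of them. Bach2 held 1 STAT match, from -140, and Id3 held none of the 5 motifs. Of the genes not shown, the windows of Tbx21, Id2 and Runx3 held none of the 5 either. Eomes held an NFAT match and Tcf7 a FOXO match. Any relation between the matches and the effect of an inhibitor was not tested. The 10 genes have 16 RefSeq windows of 300 bases (250 before to 50 after a start site), some of which overlap. Of these 2 windows held the AP-1 letters, 1 EGR, 5 STAT, 2 FOXO and 3 NFAT. The 5 STAT windows came from 3 genes, and those of Zeb2 starts 2 and 3 overlap and hold the same match. Of all 32851 such RefSeq windows, 7.81% held the AP-1 letters, 5.04% EGR, 8.30% STAT, 3.65% FOXO and 21.4% NFAT. The T-box letters TCACAC occurred in 0 of the 16 windows and in 14.5% of all windows, and the E-box letters CANNTG in 8 of the 16 and in 72.3% of all. A match describes letters only and does not show a bound site.

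Tbx21 encodes T-bet, the T-box factor that drives interferon-γ and the killer programme (Entrez 57765, chr11:97098071-97115331, minus strand). In unstimulated CTL it stood at 14.72, 12.33 and 13.78 FPKM in replicates 1 to 3, and with TCR at 58.55, 45.52 and 54.94. With PI3Kdi it stood at 30.95, 23.77 and 31.82, and with MEKi at 24.55, 23.79 and 24.13. Both inhibitor groups lay between the unstimulated and the TCR cultures without touching either. Tbx21 rose on TCR stimulation by a log2 fold change of 1.95 (SE 0.11, adjusted p = 6.51e-10, limma), from 13.6 ± 1.2 to 53.0 ± 6.73 FPKM. Against TCR it fell by 0.88 on the log2 scale with PI3Kdi (adjusted p = 5.9e-05, limma), and it fell by 1.12 with MEKi (adjusted p = 2.49e-06, limma). The second fall is just past 2-fold and, tested against a 2-fold change itself with limma's treat, did not pass (adjusted p = 1). Both inhibitor groups stayed above unstimulated CTL, by a log2 fold change of 1.07 (95% interval 0.84 to 1.30) with PI3Kdi and 0.83 (0.59 to 1.06) with MEKi.

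Zeb2 encodes a zinc finger repressor that acts with T-bet in terminal effector cells (Entrez 24136, chr2:44983632-45117395, minus strand). In unstimulated CTL it was at the edge of detection, at 0.07, 0.02 and 0.04 FPKM, or an estimated 8.77 reads in all. With TCR it reached 6.03, 7.09 and 6.31 FPKM, with PI3Kdi 4.64, 4.93 and 5.14, and with MEKi 3.15, 3.13 and 2.39. The stimulated groups did not overlap each other, with MEKi lowest. The TCR mean was 149 times the unstimulated mean, and the counting error of the few unstimulated reads alone gives a 95% interval of 77.4 to 330 for that ratio. The fitted log2 fold change of 5.53 (adjusted p = 2.51e-13, limma) depends on the added constant, being 2.84 with 1 and 7.04 with 0.01. Against TCR, Zeb2 fell by 1.14 on the log2 scale with MEKi (SE 0.16, adjusted p = 6.11e-05, limma), which did not pass the test against a 2-fold change itself (adjusted p = 1). The fall was 0.95 with a constant of 1 and 0.89 on the TPM scale. With PI3Kdi the log2 fold change against TCR was -0.39 (adjusted p = 0.0792, 95% interval -0.73 to -0.06, limma), and adjusted p was 0.0155 with a constant of 1, 0.029 after quantile normalisation and 0.0273 when only these 2 groups were fitted. It was 0.296 with a constant of 0.01 and 0.337 on the TPM scale, where the log2 fold change was -0.21. Exons of Zeb2 overlap other annotated genes over 662 bases, among them Zeb2os on the opposite strand, and the sources do not say if reads were counted by strand.

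Prdm1 encodes Blimp-1, a repressor of memory genes (Entrez 12142, chr10:44437177-44528501, minus strand). It stood at 6.15, 5.71 and 4.73 FPKM in unstimulated CTL and at 18.43, 19.84 and 17.49 with TCR. It was at 22.73, 24.22 and 21.67 FPKM with PI3Kdi and at 21.83, 22.09 and 19.65 with MEKi. All 9 stimulated cultures were above all unstimulated ones, and no inhibitor culture fell below the lowest TCR culture. Prdm1 rose on stimulation by a log2 fold change of 1.74 (SE 0.09, adjusted p = 3.43e-10, limma). With PI3Kdi it was a further 0.30 higher than with TCR (adjusted p = 0.0286, limma), and 0.48 higher on the TPM scale. That rise lost its place under the threshold without TCR replicate 1 (adjusted p = 0.0718) or 3 (0.101) and without PI3Kdi replicate 1 (0.0521) or 2 (0.104). With MEKi the log2 fold change was 0.19 (adjusted p = 0.127, limma, and 0.0478 with replicate number as a block), and on the TPM scale it was 0.45 (adjusted p = 0.00221).

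Id2 encodes an inhibitor of E proteins that effector cells need to survive (Entrez 15902, chr12:25093799-25097140, minus strand), and it was the most abundant of the 10 in every group. It stood at 1185.68, 1140.19 and 1214.59 FPKM in unstimulated CTL and at 852.78, 828.45 and 891.45 with TCR. The levels were 615.46, 632.31 and 597.67 with PI3Kdi and 649.52, 711.94 and 662.21 with MEKi. The order was the same throughout, with unstimulated cultures highest, TCR cultures next and every inhibitor culture lower than those. Id2 fell by 0.46 on the log2 scale on stimulation (SE 0.06, adjusted p = 4.37e-06, limma) and by 0.48 more with PI3Kdi than with TCR (adjusted p = 4.07e-05, limma). The fall with MEKi was 0.35 (adjusted p = 0.000307, limma), but it was 0.05 after quantile normalisation (adjusted p = 0.549) and 0.08 on the TPM scale (adjusted p = 0.174). The other values also depend on how the samples are scaled: the log2 fold change on stimulation was -0.88 after quantile normalisation and -0.87 on the TPM scale, and that with PI3Kdi against TCR was -0.25 and -0.30.

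Runx3 encodes a Runt factor that maintains CD8 identity and cytotoxicity (Entrez 12399, chr4:135120652-135177990, plus strand). It varied little, at 33.53, 27.78 and 25.84 FPKM in unstimulated CTL, 34.35, 29.46 and 38.24 with TCR, 27.75, 26.62 and 34.52 with PI3Kdi, and 42.73, 39.64 and 41.10 with MEKi. The first 3 groups overlapped, and the MEKi cultures were above all others. The log2 fold change on stimulation was 0.23 (adjusted p = 0.0874, limma), and it passed without TCR replicate 2 (0.33, adjusted p = 0.0233) or unstimulated replicate 1 (0.34, adjusted p = 0.0189). With MEKi it was 0.28 against TCR (adjusted p = 0.0644, limma), where adjusted p was 0.0414 with replicate number as a block and 0.0304 without TCR replicate 3. It passed as well on the TPM scale (0.54, adjusted p = 0.00134), after quantile normalisation (0.33, adjusted p = 0.0379) and when only these 2 groups were fitted (adjusted p = 0.0264). In the MEKi cultures Runx3 was 0.51 above unstimulated CTL (adjusted p = 0.00126, limma).

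Eomes encodes the T-box relative of T-bet that supports memory cells and cytotoxicity (Entrez 13813, chr9:118478212-118486132, plus strand). It stood at 72.17, 77.33 and 70.12 FPKM in unstimulated CTL, 107.45, 112.40 and 106.72 with TCR, and 110.02, 114.27 and 113.68 with PI3Kdi. With MEKi it stood at 71.29, 80.65 and 74.26 FPKM, overlapping unstimulated CTL. Eomes rose on stimulation by a log2 fold change of 0.57 (SE 0.06, adjusted p = 3.18e-07, limma), which was 0.16 on the TPM scale (adjusted p = 0.0388). It fell by 0.53 with MEKi against TCR (adjusted p = 5.11e-06, limma), a log2 fold change that was -0.27 on the TPM scale (adjusted p = 0.00312). The MEKi cultures differed from unstimulated ones by 0.04 (95% interval -0.08 to 0.16, adjusted p = 0.539, limma). With PI3Kdi the difference from TCR was 0.05 (95% interval -0.07 to 0.17, adjusted p = 0.551, limma), and it was 0.21 after quantile normalisation (adjusted p = 0.0286) and 0.23 on the TPM scale (adjusted p = 0.0129), of which 0.19 was the shift of the median gene.

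Id3 encodes the E protein inhibitor that marks memory precursors (Entrez 15903, chr4:136143497-136145755, plus strand), and it was the only member whose level fell more than 2-fold on stimulation. It stood at 6.63, 5.23 and 7.67 FPKM in unstimulated CTL and at 0.75, 0.63 and 0.75 with TCR. It was at 0.94, 0.53 and 0.98 FPKM with PI3Kdi and at 0.67, 0.88 and 0.80 with MEKi. The stimulated cultures overlapped whatever the inhibitor and lay below every unstimulated culture. Id3 fell by 3.02 on the log2 scale with TCR (SE 0.21, adjusted p = 6.92e-09, limma), or 9.17-fold by the means. The intervals of the inhibitor differences were wide, -0.31 to 0.59 for PI3Kdi and -0.33 to 0.57 for MEKi against TCR. The 3 TCR cultures held about 26.9 reads of Id3 in all.

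Bcl6 encodes the repressor that opposes Blimp-1 (Entrez 12053, chr16:23965052-23988852, minus strand). It stood at 0.49, 0.41 and 0.41 FPKM in unstimulated CTL, 3.06, 3.68 and 2.67 with TCR, 2.10, 2.80 and 3.07 with PI3Kdi, and 2.24, 2.00 and 2.33 with MEKi. Every stimulated culture was above the unstimulated ones, and the MEKi cultures were below the TCR ones. Bcl6 rose by a log2 fold change of 2.58 (SE 0.16, adjusted p = 2.5e-09, limma), or 1.52 with a constant of 1, and Prdm1, which it opposes, rose in the same cultures. It fell by 0.49 with MEKi (adjusted p = 0.0299, limma), and this did not pass without TCR replicate 1 (adjusted p = 0.059) or 2 (0.127), without MEKi replicate 1 (0.0597) or 2 (0.0983), or on the TPM scale (0.273). With PI3Kdi the log2 fold change was -0.24 (95% interval -0.59 to 0.11, adjusted p = 0.314, limma).

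Tcf7 encodes TCF-1, the factor most used to mark memory and stem-like CD8 T cells (Entrez 21414, chr11:52252371-52283014, minus strand). It was low throughout, at 1.55, 0.73 and 1.38 FPKM in unstimulated CTL, 3.11, 3.69 and 3.33 with TCR, 2.68, 3.07 and 3.41 with PI3Kdi, and 2.10, 3.18 and 3.96 with MEKi. Unstimulated replicate 2 and MEKi replicate 1 were low within their groups, and the stimulated groups overlapped. Tcf7 rose on stimulation by a log2 fold change of 1.45 (SE 0.24, adjusted p = 8.49e-05, limma). The rise was 1.00 with a constant of 1 and did not pass the test against a 2-fold change itself (adjusted p = 0.306). Differences from TCR were -0.14 (95% interval -0.66 to 0.38) with PI3Kdi and -0.17 (-0.69 to 0.35) with MEKi, and the latter was 0.07 without MEKi replicate 1.

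Bach2 encodes a repressor that holds back effector genes by competing with AP-1 (Entrez 12014, chr4:32238804-32586108, plus strand). It stood at 1.57, 1.51 and 1.52 FPKM in unstimulated CTL and 2.78, 3.38 and 3.10 with TCR. It was at 5.50, 6.09 and 6.04 FPKM with PI3Kdi and at 4.02, 4.18 and 4.57 with MEKi. The 4 groups did not overlap, and the highest level was under PI3Kdi, not under stimulation alone. Bach2 rose by a log2 fold change of 0.96 with TCR (SE 0.11, adjusted p = 1.46e-06, limma), close to the 2-fold line, and by 0.57 on the TPM scale (adjusted p = 0.000756). With PI3Kdi it rose by a further 0.91 (SE 0.11, 95% interval 0.68 to 1.14, adjusted p = 3.74e-05, limma), at percentile 99.2 of all genes in that comparison. With MEKi it rose by 0.45 (adjusted p = 0.0044, limma). On the TPM scale these rises were 1.09, which was called, and 0.71. Exons of Bach2 overlap the opposite-strand gene Bach2os over 537 bases.

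On TCR stimulation 9 of the 10 factors passed adjusted p under 0.05, beside 68.6% of all genes, 7 of them higher (33.6% of all genes) and 2 lower (34.9%). Of these 6 were called, beside 20.0% of all genes. The called factors were 5 that rose, beside 8.87% of all genes (Tbx21, Prdm1, Zeb2, Bcl6 and Tcf7), and 1 that fell, beside 11.1% (Id3). The levels of 9 factors did not overlap between the groups, beside 71.2% of all genes. On the effector side 3 rose and 1 fell of 5, with a median log2 fold change of 1.74, and on the memory side 4 rose and 1 fell of 5, with a median of 0.96, where the median over all genes was -0.01. Factors of both sides rose in the same cultures.

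With PI3Kdi against TCR, 4 of the 10 passed adjusted p under 0.05, beside 25.6% of all genes. Tbx21 and Id2 fell (12.8% of all genes did), and Prdm1 and Bach2 rose (12.7%). None changed more than 2-fold, except Bach2 on the TPM scale (1.09), beside 1.88% of all genes that were called, 0.499% higher and 1.38% lower. Levels of 5 factors did not overlap, beside 37.6% of all genes. With MEKi against the same TCR cultures, 6 of the 10 passed, beside 37.1% of all genes. Tbx21, Zeb2, Id2, Eomes and Bcl6 fell (18.2% of all genes did), and Bach2 rose (18.9%). The 2 called, Tbx21 and Zeb2, were both lower, beside 3.49% of all genes called, 0.980% higher and 2.51% lower. Neither was called on the TPM scale (-0.86 and -0.89). Levels of 7 factors did not overlap, beside 48.8% of all genes.

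**Figure D2:**
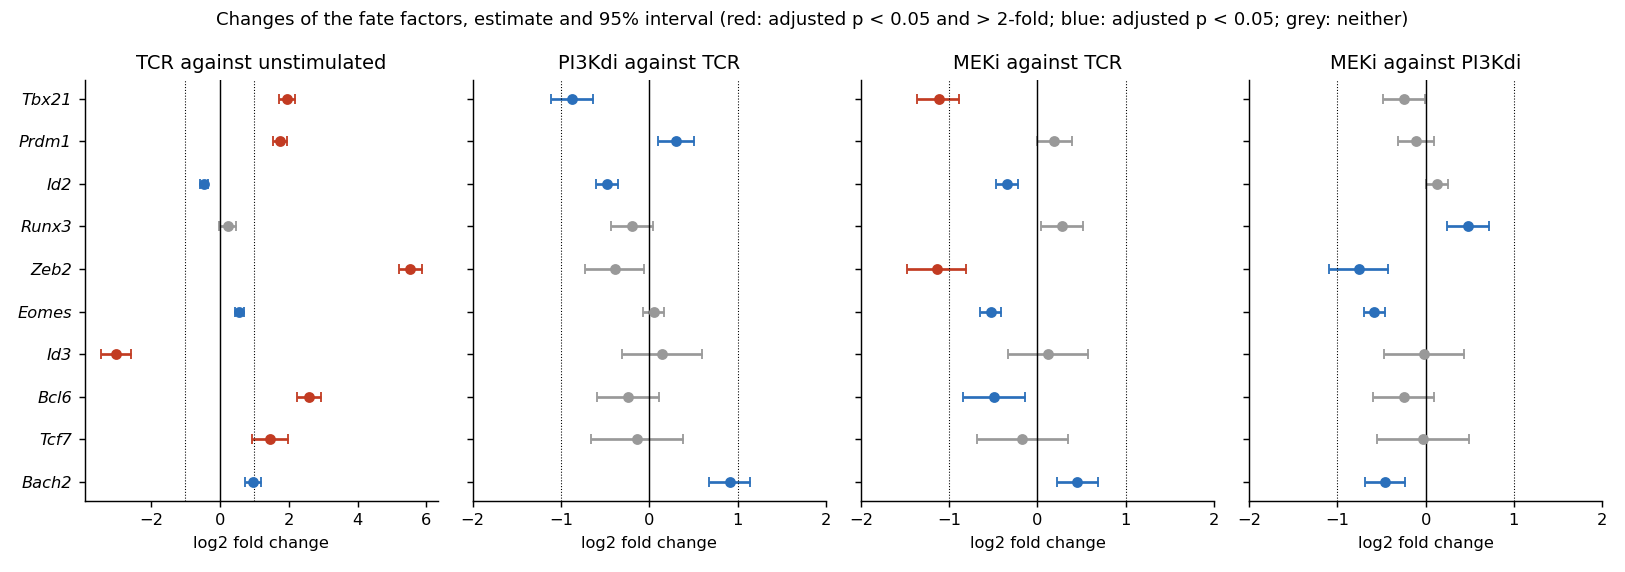
Log2 fold change (x axis) of each factor (y axis) in 4 comparisons, with points for limma estimates and bars for 95% intervals. The x axis of the first panel is wider than the others, dotted lines mark 2-fold, and colour gives the outcome of the test. Stimulation moved 6 factors past 2-fold, while under the inhibitors Tbx21 and Zeb2 with MEKi are the 2 points past the line together with the test.

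The inhibitors were compared with each other directly, each at its 1 dose and at 4 h. In this comparison 4 of the 10 passed adjusted p under 0.05, beside 28.9% of all genes, 3 of them lower (14.4%) and 1 higher (14.5%). None differed more than 2-fold, beside 3.09% of all genes called, 1.39% higher and 1.71% lower. Eomes was lower with MEKi than with PI3Kdi by a log2 fold change of -0.58 (SE 0.06, adjusted p = 2.66e-06, limma), Zeb2 by -0.75 (SE 0.16, adjusted p = 0.00219) and Bach2 by -0.46 (SE 0.11, adjusted p = 0.00522). Runx3 was higher with MEKi by 0.48 (SE 0.11, adjusted p = 0.00511, limma). In each of these 4 genes the 3 cultures of one inhibitor lay apart from the 3 of the other, as was so for 43.6% of all genes. For Tbx21, which both inhibitors lowered, the difference was -0.24 (95% interval -0.48 to -0.01, adjusted p = 0.111, limma, and 0.0221 with replicate number as a block or 0.0128 without PI3Kdi replicate 2). For Id2 it was 0.13 (95% interval 0.01 to 0.25, adjusted p = 0.0978, limma), with adjusted p = 0.0129 after quantile normalisation.

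Each inhibitor group was also set against unstimulated CTL. With PI3Kdi 9 of the 10 passed adjusted p under 0.05, beside 62.5% of all genes, and 7 were called, beside 14.6%. Bach2, with a log2 fold change of 1.87 (SE 0.11, adjusted p = 1.23e-09, limma), was called here and not with TCR alone. With MEKi 9 passed, beside 59.6% of all genes, and 6 were called, beside 13.4%. Bach2 was called with MEKi as well (log2 fold change 1.41, SE 0.11, adjusted p = 3.06e-08, limma), and Tbx21 was not (0.83). In this comparison Eomes did not pass and Runx3 did. These comparisons share the unstimulated cultures, and Prdm1, Zeb2, Id3, Bcl6 and Tcf7 were called with TCR, PI3Kdi and MEKi alike, in the same direction. Tcf7 lost its call with a constant of 1 (0.88 with PI3Kdi, 0.87 with MEKi) and in the test against a 2-fold change itself (adjusted p = 1 in both), as did Tbx21 with PI3Kdi in that test (adjusted p = 1) and on the TPM scale (0.84).

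**Figure D3:**
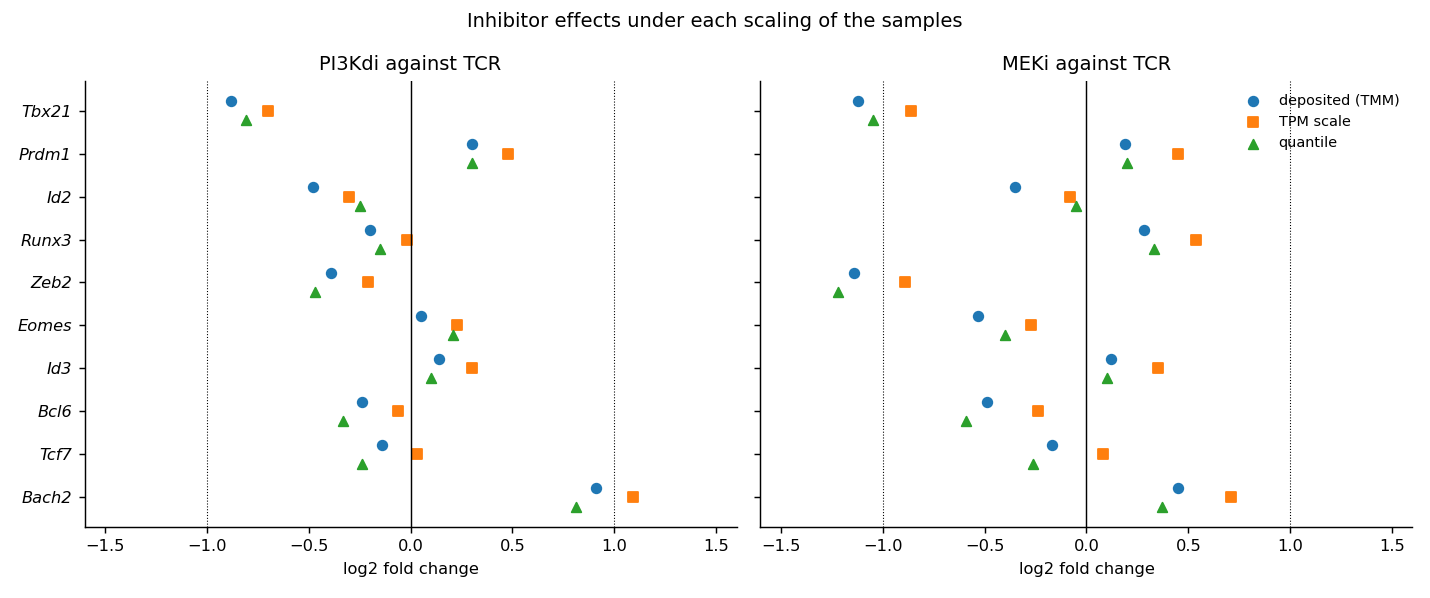
Log2 fold change (x axis) of each factor (y axis) for each inhibitor against TCR, as deposited (TMM scaling, circles), on the TPM scale (squares) and after quantile normalisation (triangles), with dotted lines at 2-fold. The squares lie to the right of the circles for every factor, Id2 with MEKi moves close to 0 under both rescalings, and Bach2 with PI3Kdi passes the line on the TPM scale.

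Scaling matters for the small changes. On the TPM scale the median gene shifted by -0.41 on stimulation, by 0.19 with PI3Kdi and by 0.26 with MEKi against TCR. On that scale the log2 fold change of Tbx21 was -0.70 with PI3Kdi and -0.86 with MEKi. That of Zeb2 was -0.89 with MEKi, and that of Bach2 was 1.09 with PI3Kdi. Relative to the median gene these values were -0.89, -1.12, -1.15 and 0.90. This return to nearly the main values is built in, because the TPM scale multiplies each sample by 1 number, and so it is no separate check.

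Pairs of an effector-side and a memory-side factor were compared as log2 ratios of FPKM + 0.1 within each culture, as a description with no test. The Tbx21 to Eomes ratio was -2.42 ± 0.19 in unstimulated CTL, -1.04 ± 0.23 with TCR, -1.97 ± 0.25 with PI3Kdi and -1.64 ± 0.11 with MEKi. Both inhibitors left it between the other groups. In the PI3Kdi cultures Tbx21 was lower and Eomes was close to its TCR level, whereas in the MEKi cultures both were lower.

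The Id2 to Id3 ratio was 7.50 ± 0.23 in unstimulated CTL and 10.05 ± 0.09 with TCR, 9.43 ± 0.47 with PI3Kdi and 9.58 ± 0.12 with MEKi. The Prdm1 to Bcl6 ratio moved the other way, from 3.39 ± 0.13 in unstimulated CTL to 2.54 ± 0.13 with TCR, 3.07 ± 0.30 with PI3Kdi and 3.22 ± 0.19 with MEKi. Both genes rose on stimulation, Bcl6 by 7.18-fold and Prdm1 by 3.36-fold of the means, but with a constant of 1 the ratio was 2.18 in unstimulated CTL and 2.25 with TCR, so its direction depends on the constant. The Prdm1 to Tcf7 ratio was 2.15 ± 0.58, 2.43 ± 0.09, 2.87 ± 0.21 and 2.79 ± 0.52 in the same order, with unstimulated and MEKi cultures overlapping all other groups.

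**Figure D4:**
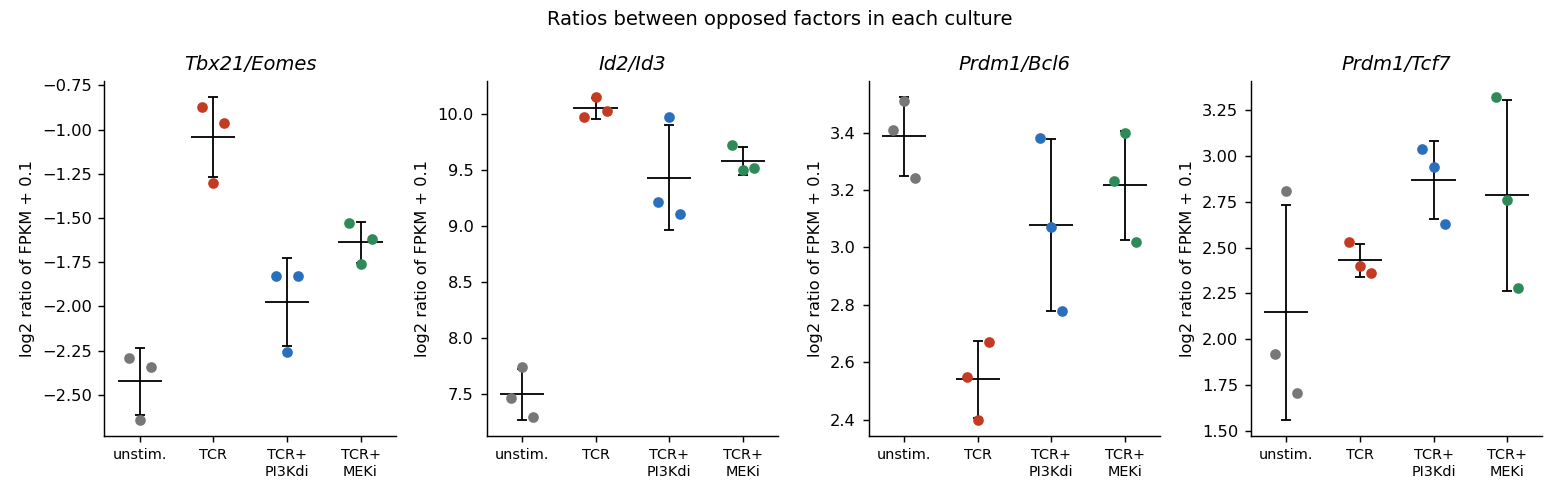
Log2 ratio of FPKM + 0.1 (y axis, not from 0) between an effector-side and a memory-side factor in each culture, by group (x axis). Long bars are means and error bars 1 SD. The TCR group has the highest mean Tbx21 to Eomes and Id2 to Id3 ratios and the lowest mean Prdm1 to Bcl6 ratio, and the Prdm1 to Tcf7 ratios of the unstimulated and MEKi groups overlap every other group.

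In every group Id2 was highest and Eomes second, and their ranges lay apart from each other and from the next gene. In unstimulated CTL the order went on with Runx3, Tbx21, Id3, Prdm1, Bach2, Tcf7, Bcl6 and Zeb2, where Id3 and Prdm1 overlapped, as did Bach2 and Tcf7. With TCR, Tbx21 passed Runx3 and Zeb2 moved from last to sixth. Tcf7, Bcl6 and Bach2 could not be ordered in that group, and Id3 was last in all 3 stimulated groups. With PI3Kdi the neighbours Runx3 and Tbx21 overlapped, as did Tbx21 and Prdm1, and Tcf7 and Bcl6. With MEKi Tcf7 and Zeb2 overlapped.

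The genes whose log2 levels followed each factor most closely were taken by Pearson correlation over the 12 samples, which fall into 4 groups and so share the contrast between them. For Zeb2 they were Tagap (r = 0.998) and the chemokine gene Xcl1 (0.997), and for Tbx21 Rnh1 (0.985) and the ETS repressor gene Erf (0.984). For Prdm1 they were Rbpj (0.993), the DNA-binding partner of Notch, and Vcl (0.991). For Eomes they were Cd84 (0.983) and Tspan5 (0.982), and for Bach2 Gnptab (0.993) and Vgll4 (0.980). For Id3 they were Arhgap9 (0.993) and the actin regulator gene Coro1a (0.992), and for Bcl6 Zfp295 (0.994) and Arih2 (0.992). The values were lower for Id2, with Esm1 (0.971) and Arrb2 (0.958), Tcf7, with Fam175b (0.969) and 4833419F23Rik (0.944), and Runx3, with Ankrd13b (0.929) and Spen (0.889).

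Partners and cofactors of the 10 proteins were followed as a list of 23, all of which had a row. On stimulation 9 rose and 8 fell, beside 33.6% and 34.9% of all genes, and 1 was called higher and 2 lower, beside 8.87% and 11.1%. The median log2 fold change of the list was 0.02. Runx2, a Runt factor like Runx3, rose from 11.9 ± 0.691 to 31.5 ± 1.92 FPKM (log2 fold change 1.40, adjusted p = 1.14e-10, limma). Id1, a relative of Id2 and Id3, fell by 1.20 on the log2 scale (adjusted p = 0.00279, limma), and Tcf3, an E protein that Id factors bind, fell by 1.00 (adjusted p = 1.76e-07). With PI3Kdi 1 was called, beside 1.88% of all genes, Id1, which fell by 1.14 against TCR (adjusted p = 0.0133, limma). Its level was low, at 2.08 ± 0.176 FPKM with TCR and 1.01 ± 0.609 with PI3Kdi. With MEKi 1 was called, beside 3.49% of all genes, Maff, a small Maf partner of Bach2, which fell by 1.31 (adjusted p = 1.43e-07, limma).

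Among other factors of CD8 effector and memory fate, 33 of 35 had a row. On stimulation 9 were called higher and 3 lower, beside 8.87% and 11.1% of all genes, with a median log2 fold change of 0.19. Irf4, which scales with TCR signal strength, rose from 21.4 ± 1.88 to 406 ± 21.6 FPKM (log2 fold change 4.24, adjusted p = 4.76e-15, limma), and Ikzf3 and Irf8 rose by 2.34 and 2.27. Nfil3 fell by 1.78 (adjusted p = 2.71e-12, limma). With PI3Kdi 0 were called either way, beside 1.88% of all genes. At adjusted p under 0.05 in limma 6 rose and 5 fell, beside 12.7% and 12.8% of all genes. With MEKi 5 were called higher and 0 lower, beside 0.980% and 2.51% of all genes, with a median of 0.12. They included Klf2, the quiescence factor that controls lymphocyte homing, which rose from 1.10 ± 0.269 FPKM with TCR to 4.81 ± 0.356 with MEKi (log2 fold change 2.05, adjusted p = 3.08e-06, limma). Klf3 rose by 1.31, Hic1 by 1.21 and Satb1 by 1.04. Hic1 was low, at 0.633 ± 0.225 FPKM with TCR and 1.6 ± 0.464 with MEKi. Directly compared, 4 of the 33 were called higher and 1, Tox, lower with MEKi than with PI3Kdi, beside 1.39% and 1.71% of all genes, and the log2 fold change of Klf2 was 1.42 (adjusted p = 0.000117, limma). Tox was near the floor, at 0.46 ± 0.125 FPKM with PI3Kdi and 0.0667 ± 0.0586 with MEKi, the latter below the added constant of 0.1.

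Surface and granule genes of the effector state had 15 of 17 rows, and on stimulation 3 were called higher and 3 lower, beside 8.87% and 11.1% of all genes, with a median log2 fold change of 0.09. The interferon-γ gene Ifng, a target of T-bet, rose by a log2 fold change of 8.67 (adjusted p = 2.33e-18, limma) and the checkpoint receptor gene Havcr2 by 1.45 (adjusted p = 7.44e-11), while the chemokine receptor gene Cxcr3 fell by 1.61 (adjusted p = 2.69e-05). With PI3Kdi 0 were called, beside 1.88% of all genes. At adjusted p under 0.05 in limma 4 rose and 2 fell, beside 12.7% and 12.8% of all genes. With MEKi 1 was called higher and 1 lower, beside 0.980% and 2.51% of all genes. The interleukin 12 receptor gene Il12rb2 rose from 41.6 ± 1.22 to 119 ± 18.9 FPKM (adjusted p = 8.12e-08, limma). Cxcr3 fell by 1.04, at low levels of 2.7 ± 1.34 FPKM with TCR and 1.18 ± 0.199 with MEKi. Compared with PI3Kdi, 0 were called higher and 2 lower, beside 1.39% and 1.71% of all genes: MEKi left Klrk1 lower by a log2 fold change of -1.37 (adjusted p = 1.37e-08, limma) and Cxcr6 by -1.30 (adjusted p = 1.03e-05).

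Genes of the memory and lymphoid-homing state also had 15 of 17 rows, and on stimulation 5 were called higher and 3 lower, beside 8.87% and 11.1% of all genes, with a median log2 fold change of 0.62. Xcl1, Cd27 and Cd44 rose, the last from 15.8 ± 0.309 to 96.1 ± 5.54 FPKM (log2 fold change 2.59, adjusted p = 2.24e-13, limma), and Igfbp4 fell by 2.90 (adjusted p = 2.75e-07). With PI3Kdi 1 was called higher and 2 lower, beside 0.499% and 1.38% of all genes. Xcl1 and Actn1 fell, with log2 fold changes of -1.41 (adjusted p = 0.00167, limma) and -1.21 (adjusted p = 4.92e-06). With MEKi 1 was called higher and 2 lower, beside 0.980% and 2.51% of all genes. The interleukin 7 receptor gene Il7r rose from 10.2 ± 0.245 to 22.9 ± 2.90 FPKM (log2 fold change 1.15, adjusted p = 4.22e-05, limma), and Xcl1 and Ltb fell, with log2 fold changes of -2.96 and -1.12. Compared with PI3Kdi, 0 were called higher and 2 lower, beside 1.39% and 1.71% of all genes: MEKi left Xcl1 and Cd28 lower, by log2 fold changes of -1.55 and -1.23.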

How the data were processed

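Messenger RNA was sequenced in 12 CTL cultures, 3 in each of 4 groups, with paired-end reads of 100 bases. Per the study's methods, the authors aligned reads to mm10 with STAR 2.4.2a, counted them per RefSeq gene with Subread 1.5.0, removed low genes, scaled by TMM and deposited FPKM, rounded to 0.01, for each sample. Whether counting used the strand is not given in the sources used here. Genes were placed by GENCODE M21 (GRCm38), and promoters and motifs come from RefSeq windows.

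From the deposited FPKM, log2(FPKM + 0.1) of all 11022 genes was fitted in limma 3.58.1 (R 4.3.3) with 1 mean per group over the 12 samples, an intensity trend and Benjamini-Hochberg adjustment, for 6 comparisons. The members, the gene lists and the tests were chosen with earlier results of these data known. All 10 members are described. From each other list up to 4 called genes with the largest change per comparison are named, and for each member the 2 genes (mean FPKM of at least 1) with the highest correlation. Some genes that this rule names are not reported here. The code was tested on simulated data.

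Depth was estimated from steps between low FPKM values and exon lengths. In each sample 48 to 83 low values entered, and 64.3% to 79.5% of them came within 0.15 of a whole read, so counts were not rebuilt. Read numbers and their Poisson intervals are approximate and cover counting error only.

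The cells came from 3 mice, and whether equal replicate numbers stand for 1 mouse is not stated. The correlation of deviations from the group means (9899 genes) between same-numbered cultures was 0.239 to 0.451 for TCR and PI3Kdi, 0.122 to 0.182 for TCR and MEKi, 0.137 to 0.149 for the inhibitor groups, 0.117 to 0.147 for unstimulated and MEKi, 0.004 to 0.153 for unstimulated and TCR, and -0.062 to 0.114 for unstimulated and PI3Kdi. In the first 4 of these, every culture correlated best with the culture of its own number. The main fit did not pair the cultures, and the replicate number entered only in the setting that used it as a block. Other settings tried were a pseudocount of 1 or 0.01, dropping genes with a mean FPKM under 1, quantile normalisation, the TPM scale (each sample brought to the same FPKM sum), replicate number as a block, fitting only the groups compared, no trend, treat against 2-fold, and omission of each sample in turn.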

Additional observations from a re-analysis of the deposited data

Results flagged for a closer look

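Of the 10 factors, 4 differed between the effects of the inhibitors, beside 28.9% of all genes. This difference of effects equals the direct comparison of MEKi with PI3Kdi because both share the TCR cultures (limma, Benjamini-Hochberg adjustment over all genes). Eomes differed by a log2 fold change of -0.58 (adjusted p = 2.66e-06): its level was 75.4 ± 4.78 FPKM with MEKi and 112.7 ± 2.30 with PI3Kdi. Zeb2 differed by -0.75 (adjusted p = 0.00219), with 2.89 ± 0.433 against 4.90 ± 0.251 FPKM. Bach2 differed by -0.46 (adjusted p = 0.00522), with 4.26 ± 0.283 against 5.88 ± 0.327 FPKM. Runx3 differed by 0.48 (adjusted p = 0.00511), with 41.2 ± 1.55 against 29.6 ± 4.27 FPKM.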

How the results depend on the processing

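The count of called factors kept within 1.5 times its value in all comparisons except those of the inhibitors with TCR. For MEKi against TCR it was 2, and 1 with a pseudocount of 1, 0 on the TPM scale (Tbx21 -0.86, Zeb2 -0.89) and 0 with treat, since both changes lie close to 2-fold. For PI3Kdi against TCR it was 0, and 1 on the TPM scale (Bach2 1.09). With the replicate block the counts of called factors were unchanged in the 6 comparisons, and 8 instead of 6 factors passed adjusted p under 0.05 for MEKi against TCR and 5 instead of 4 for MEKi against PI3Kdi. The numbers of called factors over all samples left out were 6 to 7 for TCR, 6 to 7 for PI3Kdi and 5 to 6 for MEKi against unstimulated: Bach2 was called without TCR replicate 1 (1.03), and Tbx21 with PI3Kdi was not without PI3Kdi replicate 3 (0.99), nor Tcf7 with MEKi without unstimulated replicate 2 (0.98). Bach2 on stimulation was also called with a pseudocount of 0.01 (1.00) and after quantile normalisation (1.07).

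Changes of sign were seen only among differences that had not passed the test. On the TPM scale they were Runx3 with TCR (-0.18) and PI3Kdi (-0.20) against unstimulated, Eomes with MEKi against unstimulated (-0.11), Tcf7 with PI3Kdi (0.03) and MEKi (0.08) against TCR, and Id3 (0.05) and Tcf7 (0.05) between the inhibitors. Quantile normalisation turned Eomes with MEKi against unstimulated (-0.0041). With 1 sample left out the range was -0.09 to 0.14 for Runx3 with PI3Kdi against unstimulated, -0.01 to 0.08 for Eomes with MEKi against unstimulated, -0.37 to 0.07 for Tcf7 with MEKi against TCR, and between the inhibitors -0.27 to 0.12 for Id3 and -0.22 to 0.22 for Tcf7. The cause of these changes was not tested.

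Ratios with a low gene depend on the pseudocount. With 1, Id2 to Id3 was 8.97 (TCR), 8.42 (PI3Kdi) and 8.57 (MEKi), Prdm1 to Bcl6 was 2.18 (unstimulated), 2.25 (TCR), 2.71 (PI3Kdi) and 2.80 (MEKi), and Prdm1 to Tcf7 was 2.16 (TCR) and 2.56 (PI3Kdi). With 0.01, Id2 to Id3 was 10.22 (TCR) and 9.74 (MEKi) and Prdm1 to Bcl6 was 3.63 (unstimulated). With a pseudocount of 1 the Prdm1 to Bcl6 ratio was thus no longer lower with TCR than in unstimulated CTL. Depth limits Zeb2 before stimulation and Id3 after it.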
